A study of Rattus norvegicus with 15 samples.

Results

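The genes described here encode the urea cycle and the enzymes that break down amino acids in the liver. They were chosen by name, with earlier results of these data known. The set holds every probe set whose gene symbol, current or former, was one of 41 named genes, with the brightest probe set standing for its gene. All 41 were on the array, with 52 probe sets among 31099, and they are 41 of the 9540 genes that could be tested. Each of the 41 also lay above the filter on low values in all 15 samples, the lowest single log2 value being 6.35 against a limit of 6.1, so none was kept for being high in 1 group alone.

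RNA came from whole frozen liver of male Sprague dawley rats from Charles River that were 7 weeks old at the start, and was read on an Affymetrix rat 3′ array, 1 array per sample. Fat supplied 59% of the energy in the high fat diet, which all rats ate, the controls included. Daily gavage lasted 6 weeks, with 3 groups of 5 samples given vehicle (0.5% methylcellulose), PF-04923503 at 10 mg/kg or PF-04923503 at 30 mg/kg. PF-04923503 is labelled as an ACC inhibitor, ACC being acetyl-CoA carboxylase, which makes the malonyl-CoA used in fatty acid synthesis. No group on another diet and no untreated group was analysed here, so the comparisons are between treated and vehicle rats on this diet. Nothing in the labels says whether the 5 samples of a group are 5 separate rats or whether tissue was pooled, and the p-values therefore reflect only how far these samples spread. Both dose comparisons use the same 5 vehicle samples, so their results are not independent of each other.

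The liver disposes of the nitrogen of amino acids in 2 ways that lie in different zones of its lobule. Hepatocytes around the portal vein break amino acids down and convert the ammonia to urea, and a narrow rim of hepatocytes around the central vein captures the ammonia that is left by making glutamine. Aminotransferases move amino groups between amino acids and keto acids, and separate mitochondrial and cytosolic routes take apart the carbon skeletons of serine, histidine, tyrosine, tryptophan, lysine, proline and glycine. Many of these enzymes are known to be raised by fasting, glucagon and glucocorticoids and by protein in the diet.

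Values are log2 values, so a difference of 1 is a doubling, and the size of a value is compared only between samples of the same gene. The 8 of 9 hepatocyte marker genes on the array (albumin and other plasma proteins) had a summed level between 17.76 and 17.81 in all 3 groups, and correlations between arrays over all probe sets lay between 0.989 and 0.996. Of the 9 of 12 Kupffer cell and macrophage markers measured, all 9 had lower means than vehicle at both doses, and their summed log2 level ran from 12.68 to 13.26 in vehicle, from 12.24 to 12.89 at 10 mg/kg and from 12.07 to 13.22 at 30 mg/kg. The 8 endothelial markers measured, of 10, were also all lower in mean at both doses, with a summed level of 11.91 to 12.22 in vehicle, 11.66 to 12.08 at 10 mg/kg and 11.71 to 12.09 at 30 mg/kg. Of all 9540 genes tested, 5554 had lower means at 10 mg/kg and 5917 at 30 mg/kg. At an unadjusted p under 0.05 (limma), 6 of 9 macrophage markers were lower at 10 mg/kg and 2 of 9 at 30 mg/kg. Of the endothelial markers 2 of 8 were lower at each dose. The shares of all genes were 8.79% and 10.8%. Of 8 stellate cell and matrix markers measured, 8 had lower means at 10 mg/kg and 5 at 30 mg/kg. Of 3 blood markers, 3 and 2 had lower means. No gene of these marker lists passed the test (limma). Their part in the results for the urea cycle and amino acid genes was not tested. In bulk samples, fewer cells of a type and less RNA per cell cannot be told apart.

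No gene of the set passed the test at either dose: limma called 0 of 41 at 10 mg/kg, where 0.105% of all genes tested were called, and 0 of 41 at 30 mg/kg, where the share of all genes was 0%. A call means an adjusted p under 0.05 after Benjamini-Hochberg adjustment over all 9540 genes. The adjusted p of the 41 genes ran from 0.223 to 1 at 10 mg/kg and from 0.131 to 0.993 at 30 mg/kg. Also 0 of 41 were called between the doses (0% of all genes) and 0 of 41 for the mean of both doses against vehicle (0.147% of all genes). At an unadjusted p under 0.05, limma's count was 8 of 41 at 10 mg/kg, or 19.5%, against 13.3% of all genes tested. It was 6 of 41 at 30 mg/kg, or 14.6%, against 16.1% of all genes, 2 of 41 between the doses against 5.82%, and 10 of 41 for both doses against 17.7%. Of the 8 at 10 mg/kg, 5 were higher (Cps1, Arg1, Sds, Agxt and Shmt1, beside 4.49% of all genes) and 3 lower (Glul, Got2 and Sardh, beside 8.79%). Of the 6 at 30 mg/kg, 3 were higher (Cps1, Arg1 and Sds, beside 5.27%) and 3 lower (Got2, Prodh2 and Sardh, beside 10.8%). These counts moved when single samples were left out, from 4 to 11 at 10 mg/kg and from 4 to 12 at 30 mg/kg. At 10 mg/kg the count was 4 without vehicle sample 4, 5 without vehicle sample 3 or sample 2 of either dose, and 11 without vehicle sample 5. The 30 mg/kg count became 12 when vehicle sample 5 was left out and 10 when sample 5 of its own group was.

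The data bound most of these differences within 1.5-fold, though for a smaller share of the 41 than of all genes. The 95% confidence interval of the difference at 10 mg/kg lay within 1.5-fold either way for 34 of the 41 genes (82.9%), against 92.6% of all genes tested. At 30 mg/kg it did so for 35 of 41 (85.4%), against 93.0%. A tighter bound of 1.2-fold either way did not hold for most of the 41. It held for 14 of 41 at 10 mg/kg (34.1%, against 59.6% of all genes) and for 16 of 41 at 30 mg/kg (39.0%, against 56.0%). The median difference of the 41 genes was 0.04 on the log2 scale at 10 mg/kg and -0.02 at 30 mg/kg, beside -0.02 and -0.03 for all genes. With each sample left out in turn the former ran from 0.002 to 0.057 and the latter took both signs, from -0.039 to 0.032. The mean was higher than vehicle in 24 of 41 genes at 10 mg/kg, where 41.8% of all genes were higher, and in 20 of 41 at 30 mg/kg, where 38.0% were. A mean difference of at least 1.2-fold either way was seen for 6 of 41 genes at 10 mg/kg (7.56% of all genes) and 7 of 41 at 30 mg/kg (7.03%). Only 1 gene at each dose reached 1.5-fold, Glul at 10 mg/kg (1.52% of all genes) and Agxt2 at 30 mg/kg (1.03%), both with lower treated means.

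**Figure D1:**
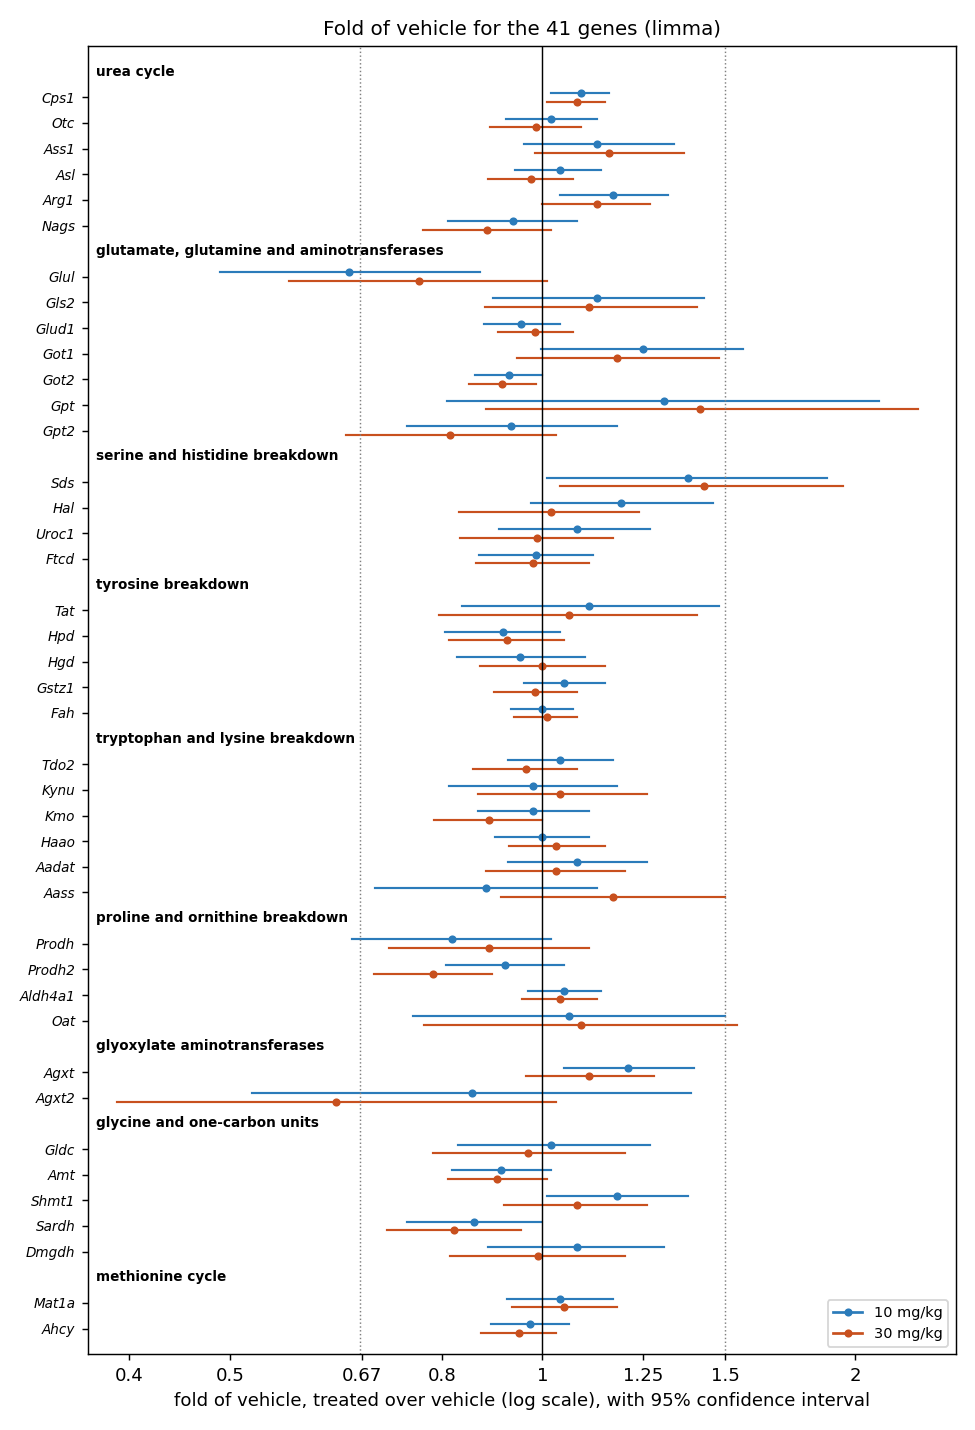
Fold of vehicle, treated over vehicle on a log axis, for each of the 41 genes, grouped by role, at 10 mg/kg and 30 mg/kg (points, limma estimates; lines, 95% confidence intervals, n = 5 per group; dotted lines, 1.5-fold either way). Most estimates lie near 1, and Glul at 10 mg/kg and Agxt2 at 30 mg/kg lie farthest to the left.

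The array measures transcripts and not promoters, and the stretches before the start of 4 genes are shown to identify the genes the values below turn on: Cps1, the entry to the urea cycle; Glul and Prodh2, whose groups did not overlap at 1 dose; and Agxt2, with the largest difference at 30 mg/kg. Each is the 250 bases before the annotated start, 5′ to 3′ on the gene's own strand, from RefSeq on build GRCr8, in which the table held 35 of the 41 genes. Capitals mark letters that match 1 of 6 motifs searched on both strands. In Cps1 the capitals are a match to the HNF4 site CAAAGTCCA on the other strand, 71 bases before the start.
Cps1 (chr9:76063613-76063862, + strand): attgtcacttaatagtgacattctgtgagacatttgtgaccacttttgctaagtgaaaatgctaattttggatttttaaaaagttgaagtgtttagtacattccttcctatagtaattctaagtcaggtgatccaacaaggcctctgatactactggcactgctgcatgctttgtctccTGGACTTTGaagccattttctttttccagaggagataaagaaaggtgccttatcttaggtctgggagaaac
The 3 capitalised stretches of Glul, which makes glutamine, are matches to the CCAAT box. RefSeq lists 2 starts for Glul, and the stretch precedes 1 of them.
Glul (chr13:68575816-68576065, + strand): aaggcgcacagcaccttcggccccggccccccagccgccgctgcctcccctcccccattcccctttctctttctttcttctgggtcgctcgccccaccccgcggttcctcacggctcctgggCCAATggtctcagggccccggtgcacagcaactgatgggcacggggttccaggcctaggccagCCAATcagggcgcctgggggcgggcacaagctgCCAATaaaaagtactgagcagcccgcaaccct
The capitals in Prodh2 are a CCAAT box on the other strand, 207 bases before the start.
Prodh2 (chr1:94880837-94881086, + strand): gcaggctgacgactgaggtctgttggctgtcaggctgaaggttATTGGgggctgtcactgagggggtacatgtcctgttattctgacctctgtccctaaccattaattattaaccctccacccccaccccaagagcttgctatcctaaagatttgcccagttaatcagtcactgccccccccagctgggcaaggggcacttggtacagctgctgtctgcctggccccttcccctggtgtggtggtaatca
In Agxt2 the capitals are a TATA box (TATAAA) on the other strand and then an HNF4 site.
Agxt2 (chr2:61063166-61063415, + strand): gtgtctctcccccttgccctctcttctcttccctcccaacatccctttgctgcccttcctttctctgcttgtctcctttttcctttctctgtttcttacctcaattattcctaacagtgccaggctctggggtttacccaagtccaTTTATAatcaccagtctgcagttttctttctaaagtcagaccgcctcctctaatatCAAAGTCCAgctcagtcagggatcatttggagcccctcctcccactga
The HNF4 letters were found before 3 of the 35 genes (Agxt2, Cps1 and Kmo), and in 0.338% of the 33469 windows of that length in the table. The CCAAT box was found before 18 of 35, against 34.0% of all windows, and TATAAA before 6 of 35, against 12.9%. The C/EBP letters TTGCNNAA were found before 4 of 35 (9.22% of all windows), the glucocorticoid half-site AGAACA before 4 of 35 (17.5%) and the cAMP response element TGACGTCA before 0 of 35 (1.59%). A gene was counted if the window of any of its listed starts matched, while the percentages are shares of windows, so counts and percentages are not in the same unit. Such matches describe the letters and do not show that a factor binds there.

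The 6 genes of the urea cycle had small differences between groups, none of which passed the test, and the entry and exit enzymes had slightly higher means at both doses. Cps1, the mitochondrial enzyme that makes carbamoyl phosphate from ammonia, had log2 values in vehicle samples 1 to 5 of 13.54, 13.58, 13.55, 13.70 and 13.71. Its values were 13.75, 13.69, 13.79, 13.72 and 13.74 at 10 mg/kg, and at 30 mg/kg 13.78, 13.72, 13.70, 13.71 and 13.71. Every treated sample lay above the vehicle mean of 13.62 ± 0.08 (SD, n = 5), but vehicle samples 4 and 5 lay within the treated range, so the groups overlapped. The mean was 1.09-fold that of vehicle at 10 mg/kg (95% interval 1.02 to 1.16, limma adjusted p = 0.282) and 1.08-fold at 30 mg/kg (1.01 to 1.15, adjusted p = 0.251). A second, dimmer probe set of Cps1 gave larger differences, 1.22-fold at 10 mg/kg and 1.29-fold at 30 mg/kg. Its log2 values ran from 12.62 to 13.16 in vehicle, from 13.08 to 13.20 at 10 mg/kg and from 13.13 to 13.32 at 30 mg/kg. When all probe sets were tested it had limma adjusted p-values of 0.185 and 0.0799, and its groups also overlapped.

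Arg1, the arginase that splits arginine into urea and ornithine, had values of 13.55, 13.45, 13.35, 13.27 and 13.61 in vehicle. They were 13.73, 13.69, 13.47, 13.66 and 13.81 at 10 mg/kg and 13.60, 13.72, 13.70, 13.66 and 13.42 at 30 mg/kg. In the 10 mg/kg group 4 samples lay above every vehicle sample and 1 did not, and at 30 mg/kg sample 5 lay below the vehicle mean. The mean was 1.17-fold that of vehicle (1.04 to 1.32, limma adjusted p = 0.262) and 1.13-fold (1.00 to 1.27, adjusted p = 0.297). Ass1, which joins citrulline to aspartate, had means 1.13-fold and 1.16-fold those of vehicle (limma adjusted p = 0.512 and 0.359). Its vehicle values spread from 13.12 to 13.88, wider than the 13.65 to 13.85 at 10 mg/kg.

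The other 3 genes gave smaller or opposite differences. Otc, which makes citrulline, had means of 12.73 ± 0.07, 12.76 ± 0.13 and 12.71 ± 0.13 in vehicle, 10 mg/kg and 30 mg/kg. Asl, which releases arginine, had means of 11.28 ± 0.15, 11.33 ± 0.06 and 11.24 ± 0.05. A second probe set of Asl had ratios to vehicle of 0.999 at 10 mg/kg and 0.948 at 30 mg/kg, so its higher mean at 10 mg/kg depends on the probe set. Nags, which makes the N-acetylglutamate that Cps1 needs, had lower treated means, and vehicle was 1.07-fold higher than 10 mg/kg and 1.13-fold higher than 30 mg/kg (limma adjusted p = 0.713 and 0.384). All 5 of its 30 mg/kg samples lay below the vehicle mean of 10.19, within the vehicle range except for 1 sample. Over the 6 genes the mean was higher than vehicle in 5 at 10 mg/kg and in 3 at 30 mg/kg, with median differences of 0.09 and 0.04.

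**Figure D2:**
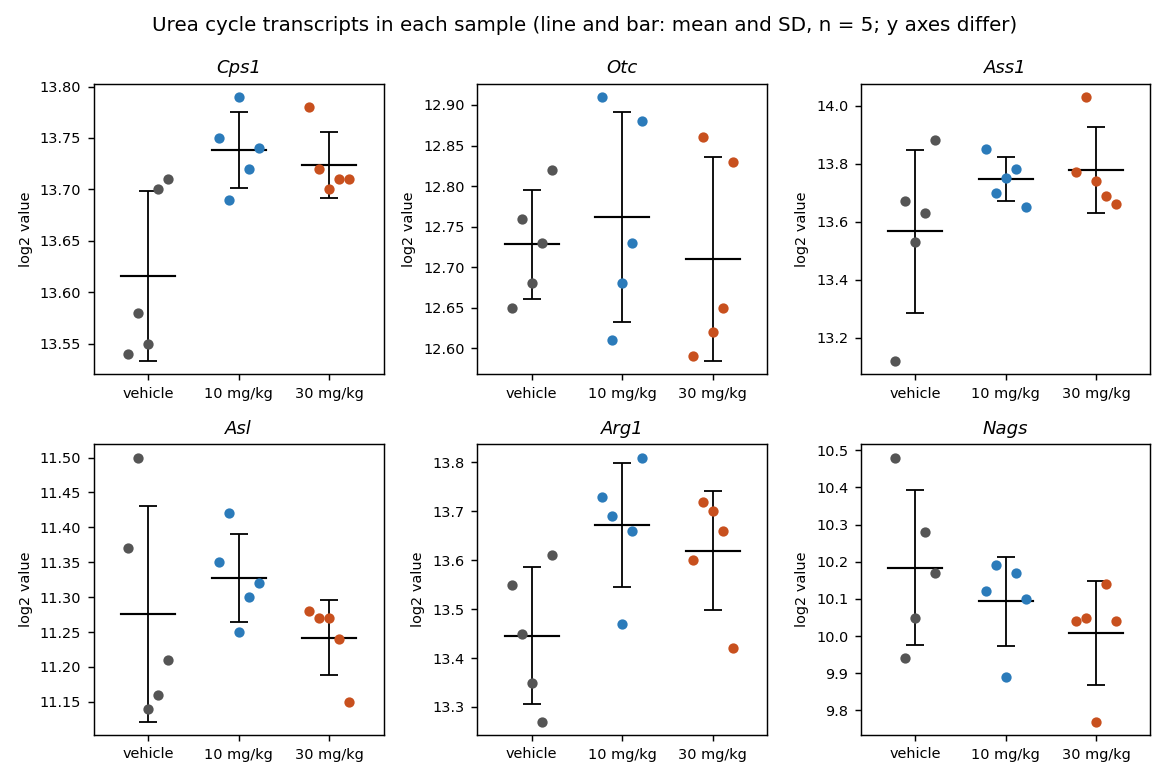
Log2 value of the 6 urea cycle genes in each of the 15 samples (points), with group mean and SD (n = 5); the y axes differ between panels. Cps1 and Arg1 have higher treated means with overlapping groups, and vehicle samples of Ass1 are spread from 13.12 to 13.88.

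Among the genes of glutamine, glutamate and the aminotransferases, Glul stood lowest at 10 mg/kg. Glul, glutamine synthetase, had log2 values of 11.94, 11.85, 11.31, 11.51 and 11.88 in vehicle. They were 11.12, 10.67, 11.23, 11.18 and 11.21 at 10 mg/kg, and at 30 mg/kg 10.61, 11.80, 11.07, 11.49 and 11.54. All 5 samples at 10 mg/kg lay below all 5 vehicle samples, by a gap of 0.079 between the nearest values, while at 30 mg/kg the samples spread from below the 10 mg/kg range to near the top of the vehicle range. Glul was the only one of the 41 genes with no overlap at 10 mg/kg, where 2.44% of all genes tested had none in either direction and 1.47% had all treated values lower. Vehicle was 1.53-fold higher than 10 mg/kg (95% interval 1.15 to 2.05), with a limma adjusted p of 0.223 that ran from 0.105 to 0.367 under the alternatives, the gene's other probe sets included. An exact two-sided permutation test of this gene alone gave p = 0.00794, the smallest p that 5 against 5 allows and the one that any gene without overlap has, so it restates the separation. Against 30 mg/kg, vehicle was 1.32-fold higher (0.986 to 1.76, limma adjusted p = 0.334), and 4 of 5 samples lay below the vehicle mean.

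The array has 3 probe sets for Glul. The other 2 gave vehicle values 1.61-fold and 1.62-fold higher than 10 mg/kg, without overlap, and with limma adjusted p-values of 0.119 and 0.105 when all probe sets were tested. For 30 mg/kg their log2 differences from vehicle were -0.53 and -0.58 (limma adjusted p = 0.154 and 0.121), with overlap. The 3 probe sets read the same samples and are not separate evidence.

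Gls2, the liver glutaminase that releases ammonia from glutamine around the portal vein, had treated means above vehicle, by 1.13-fold and 1.11-fold (limma adjusted p = 0.651 and 0.659). Its vehicle sample 5, at 11.82, stood apart from the other 4, at 11.11 to 11.28. Glud1, glutamate dehydrogenase, varied least of these 7 genes in vehicle, with means of 13.18 ± 0.03, 13.12 ± 0.12 and 13.16 ± 0.07 in the 3 groups.

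The aminotransferases did not run one way. Got2, the mitochondrial aspartate aminotransferase, had values of 12.51, 12.60, 12.67, 12.76 and 12.68 in vehicle. They were 12.54, 12.50, 12.49, 12.52 and 12.64 at 10 mg/kg and 12.47, 12.54, 12.50, 12.49 and 12.58 at 30 mg/kg. All treated samples lay below the vehicle mean, and the overlap came from vehicle samples 1 and 2. Vehicle was 1.08-fold higher than 10 mg/kg (1.00 to 1.16, limma adjusted p = 0.37) and 1.09-fold higher than 30 mg/kg (1.02 to 1.18, adjusted p = 0.237). Got1, the cytosolic enzyme, had values of 9.83, 9.32, 9.88, 9.86 and 10.23 in vehicle, 10.35, 10.36, 9.95, 9.92 and 10.11 at 10 mg/kg, and 9.98, 10.26, 10.29, 10.07 and 9.72 at 30 mg/kg. Vehicle sample 5 lay among the treated samples and the other vehicle samples lay below all 10 mg/kg samples. Relative to vehicle the means were 1.25-fold (0.996 to 1.56, limma adjusted p = 0.386) and 1.18-fold (0.946 to 1.48, adjusted p = 0.445).

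Gpt, an alanine aminotransferase, had values of 8.66, 9.22, 9.07, 9.65 and 10.66 in vehicle, 10.27, 9.49, 9.68, 9.40 and 10.36 at 10 mg/kg, and 9.67, 10.40, 9.91, 9.43 and 10.41 at 30 mg/kg. Vehicle held both the lowest sample and the highest of the 15. Its means were 1.31-fold (0.810 to 2.11) and 1.42-fold (0.883 to 2.30) those of vehicle (limma adjusted p = 0.64 and 0.455). Without vehicle sample 5, the highest, these were 1.61-fold and 1.75-fold (limma adjusted p = 0.257 and 0.149). Without vehicle sample 1, the lowest, they were 1.14-fold and 1.24-fold (limma adjusted p = 0.81 and 0.642). Gpt2, the mitochondrial form, had values of 10.47, 9.76, 9.64, 10.09 and 10.55 in vehicle, 9.93, 9.93, 9.90, 9.88 and 10.37 at 10 mg/kg, and 9.83, 9.87, 9.69, 9.88 and 9.75 at 30 mg/kg. Vehicle samples 1, 4 and 5 lay above all 30 mg/kg samples, and vehicle samples 2 and 3 lay within or below them. Vehicle was 1.07-fold higher than 10 mg/kg and 1.23-fold higher than 30 mg/kg (0.975 to 1.55, limma adjusted p = 0.819 and 0.363). A second probe set of Gpt2 had vehicle 1.06-fold and 1.17-fold higher. At 30 mg/kg it had a limma unadjusted p of 0.0257 and an adjusted p of 0.247 when all probe sets were tested.

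Of the genes for serine and histidine breakdown, Sds had the largest differences with higher treated means. They were near those of Gpt at 30 mg/kg (1.43-fold against 1.42-fold) and, without vehicle sample 5, smaller than those of Gpt at both doses (1.51-fold and 1.56-fold against 1.61-fold and 1.75-fold). Without vehicle sample 1 they were larger than those of Gpt (1.36-fold and 1.41-fold against 1.14-fold and 1.24-fold). Sds, serine dehydratase, which turns serine into pyruvate, had values of 6.62, 6.52, 6.35, 6.80 and 7.21 in vehicle. They were 7.67, 7.08, 6.87, 7.56 and 6.62 at 10 mg/kg and 6.74, 7.42, 7.38, 7.47 and 7.06 at 30 mg/kg. Treated samples lay mostly above vehicle samples 1 to 4, and vehicle sample 5 lay within the treated range at both doses. The means were 1.38-fold (1.01 to 1.88, limma adjusted p = 0.365) and 1.43-fold (1.04 to 1.95, adjusted p = 0.256) those of vehicle. Hal, which starts histidine breakdown by releasing ammonia, had a mean 1.19-fold that of vehicle at 10 mg/kg and 1.02-fold at 30 mg/kg (limma adjusted p = 0.439 and 0.95). Uroc1, the next enzyme of that route, had means of 12.22 ± 0.23, 12.32 ± 0.17 and 12.20 ± 0.17. Ftcd, which passes the last carbon of histidine to folate, had means of 12.72 ± 0.16, 12.70 ± 0.17 and 12.69 ± 0.09.

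Of the 5 genes of tyrosine breakdown, 0 had an unadjusted p under 0.05 (limma) at either dose, where 13.3% and 16.1% of all genes did, shares at which 0 of 5 does not set the list apart. Fah, which makes the last cut to fumarate and acetoacetate, had means of 12.69 ± 0.05, 12.69 ± 0.09 and 12.70 ± 0.04, and the 95% interval of its ratio to vehicle was 0.932 to 1.07 at 10 mg/kg. Hgd, which opens the ring of homogentisate, had means of 11.59 ± 0.17, 11.52 ± 0.16 and 11.59 ± 0.14, and Gstz1, which acts next, 12.60 ± 0.09, 12.67 ± 0.11 and 12.58 ± 0.08. Hpd, which makes homogentisate, had lower treated means, with vehicle 1.09-fold and 1.08-fold higher (limma adjusted p = 0.563 and 0.545). Tat, the aminotransferase that starts the route and responds to glucocorticoids and glucagon, spread widely, from 10.62 to 11.83 at 10 mg/kg alone, with means 1.11-fold and 1.06-fold those of vehicle (limma adjusted p = 0.765 and 0.869).

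The 6 genes of tryptophan and lysine breakdown likewise had 0 at that level against vehicle at either dose, beside the same 13.3% and 16.1% of all genes. Tdo2, which opens the tryptophan ring, had means of 13.64 ± 0.16, 13.70 ± 0.12 and 13.59 ± 0.10. Kmo, which hydroxylates kynurenine, had a lower mean at 30 mg/kg, where all 5 samples lay below the vehicle mean and vehicle was 1.13-fold higher (0.996 to 1.27, limma adjusted p = 0.324). Kynu, which cleaves kynurenine, Haao, which leads toward quinolinate, and Aadat, an aminotransferase of kynurenine and 2-aminoadipate, had ratios to vehicle between 0.979 and 1.08 at both doses.

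Aass, which carries out the first steps of lysine breakdown, had values of 11.70, 11.21, 11.35, 11.45 and 12.30 in vehicle, 11.48, 11.46, 11.44, 11.63 and 11.08 at 10 mg/kg, and 11.86, 11.86, 11.96, 11.90 and 11.55 at 30 mg/kg. Samples at 30 mg/kg lay above those at 10 mg/kg except for sample 5, and vehicle sample 5 was the highest of all. The mean at 30 mg/kg was 1.32-fold that at 10 mg/kg (95% interval 1.03 to 1.70, limma adjusted p = 0.851). Against vehicle the log2 difference at 30 mg/kg was 0.23, a ratio of 1.17, and vehicle was 1.13-fold higher than 10 mg/kg (limma adjusted p = 0.525 and 0.676). Without vehicle sample 5 these log2 differences were 0.40 and -0.01 (limma adjusted p = 0.126 and 0.989). Without vehicle sample 1 they were 0.25 and -0.16 (limma adjusted p = 0.501 and 0.721).

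Of the genes for proline and ornithine breakdown, Prodh2 had the smallest p of the 41 at 30 mg/kg. Prodh2, which oxidises hydroxyproline, had values of 11.67, 11.46, 11.43, 11.65 and 11.30 in vehicle, 11.45, 11.55, 11.45, 11.35 and 11.13 at 10 mg/kg, and 11.18, 11.25, 10.94, 11.16 and 11.23 at 30 mg/kg. All 5 samples at 30 mg/kg lay below all 5 vehicle samples, by a gap of 0.049, and the 10 mg/kg samples overlapped both groups. Vehicle was 1.27-fold higher than 30 mg/kg (95% interval 1.12 to 1.45), with a limma adjusted p of 0.131 that ran from 0.0758 to 0.261 under the alternatives. Vehicle was 1.09-fold higher than 10 mg/kg (0.952 to 1.24, limma adjusted p = 0.597). The 30 mg/kg mean was 0.852 times the 10 mg/kg mean (0.747 to 0.971, adjusted p = 0.851). Prodh2 and Sardh were the 2 of 41 genes without overlap at 30 mg/kg, where 3.21% of all genes had none and 2.36% had all treated values lower. No gene of the 41 was without overlap when both doses were set together against vehicle, where the share of all genes was 0.608%.

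Prodh, proline dehydrogenase, had values of 9.54, 9.71, 9.72, 9.71 and 10.29 in vehicle, 9.99, 9.30, 9.47, 9.29 and 9.47 at 10 mg/kg, and 9.79, 9.87, 9.45, 9.54 and 9.48 at 30 mg/kg. The 10 mg/kg samples other than sample 1 lay below all vehicle samples. Vehicle was 1.22-fold higher than 10 mg/kg (0.978 to 1.52, limma adjusted p = 0.423) and 1.12-fold higher than 30 mg/kg (0.901 to 1.40, adjusted p = 0.598). Aldh4a1, which completes proline oxidation, had means of 12.28 ± 0.10, 12.35 ± 0.09 and 12.33 ± 0.03. Oat, ornithine aminotransferase, was spread widely in vehicle, with values of 11.22, 12.30, 12.06, 11.36 and 12.63, and treated means 1.06-fold and 1.09-fold those of vehicle (limma adjusted p = 0.908 and 0.838).

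**Figure D3:**
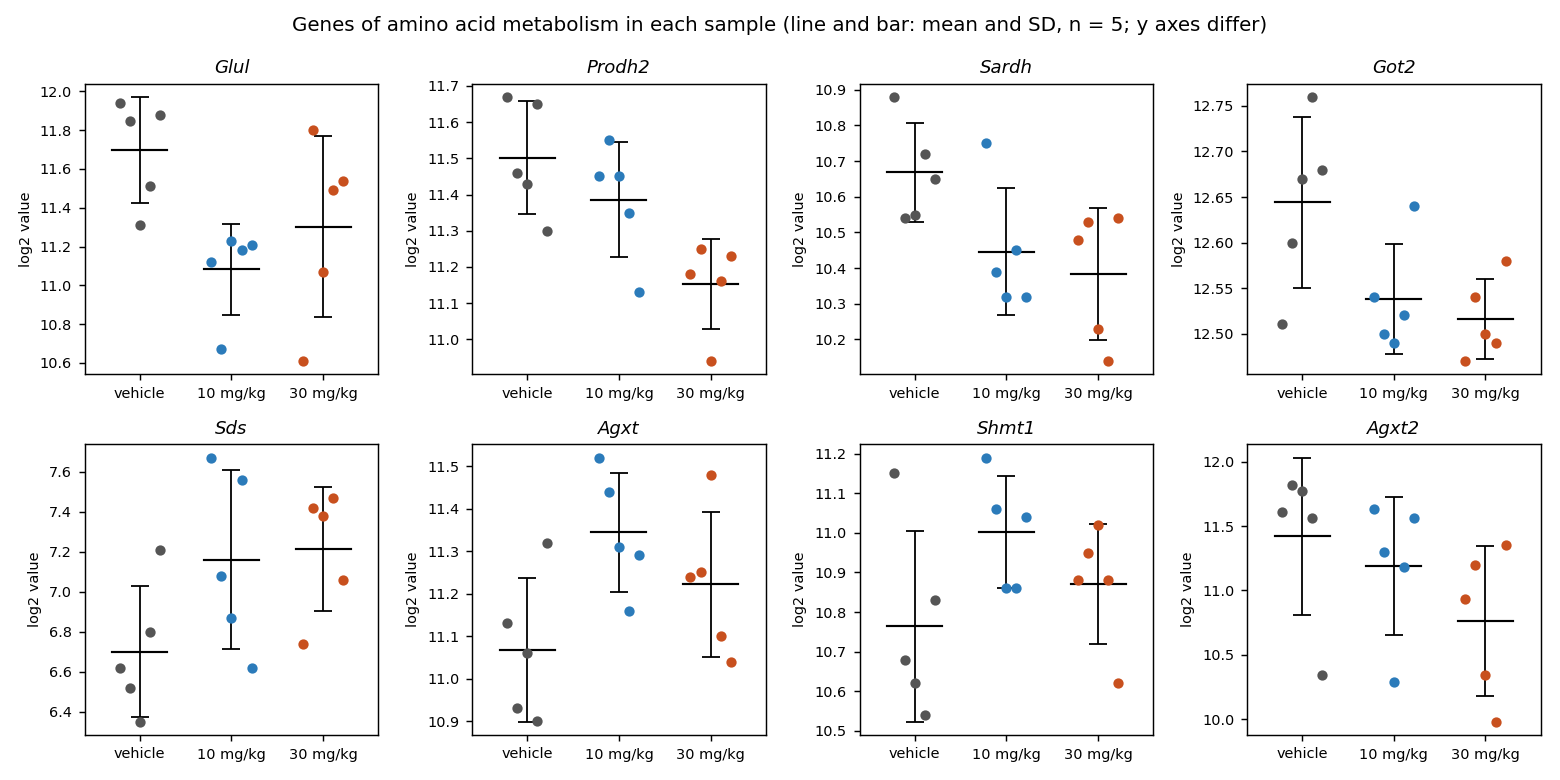
Log2 value in each sample (points) with group mean and SD (n = 5) for genes whose groups did not overlap, or which had low unadjusted p or large differences; the y axes differ between panels. Glul at 10 mg/kg and Prodh2 at 30 mg/kg lie wholly below vehicle, and vehicle sample 5 of Agxt2, at 10.34, lies far below the other vehicle samples.

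The 2 glyoxylate aminotransferases had treated means on opposite sides of vehicle. Agxt, which turns glyoxylate into glycine, had values of 11.13, 10.93, 11.06, 10.90 and 11.32 in vehicle, 11.52, 11.44, 11.31, 11.16 and 11.29 at 10 mg/kg, and 11.24, 11.25, 11.48, 11.10 and 11.04 at 30 mg/kg. Every 10 mg/kg sample lay above the vehicle mean, and vehicle sample 5 lay within their range. The mean was 1.21-fold that of vehicle at 10 mg/kg (1.05 to 1.40, limma adjusted p = 0.262) and 1.11-fold at 30 mg/kg (0.965 to 1.28, adjusted p = 0.45). Agxt2, a mitochondrial enzyme that also handles methylated arginines, had values of 11.61, 11.82, 11.77, 11.56 and 10.34 in vehicle, 11.63, 11.30, 10.29, 11.18 and 11.56 at 10 mg/kg, and 10.93, 11.20, 10.34, 9.98 and 11.35 at 30 mg/kg. All 30 mg/kg samples lay below vehicle samples 1 to 4, while vehicle sample 5 was among the lowest of the 15. Vehicle was 1.17-fold higher than 10 mg/kg (0.718 to 1.90) and 1.58-fold higher than 30 mg/kg (0.969 to 2.57), with limma adjusted p-values of 0.806 and 0.339. Without vehicle sample 5, vehicle was 1.41-fold and 1.90-fold higher, with limma adjusted p-values of 0.448 and 0.142. Without vehicle sample 1 it was 1.13-fold and 1.53-fold higher (limma adjusted p = 0.847 and 0.402). With each sample left out in turn, the log2 difference at 30 mg/kg ran from -0.93 to -0.46.

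In glycine and one-carbon metabolism, Sardh had lower means and Shmt1 higher means at both doses. Sardh, the mitochondrial enzyme that turns sarcosine into glycine, had values of 10.88, 10.54, 10.55, 10.72 and 10.65 in vehicle, 10.75, 10.39, 10.32, 10.45 and 10.32 at 10 mg/kg, and 10.48, 10.53, 10.23, 10.14 and 10.54 at 30 mg/kg. At 30 mg/kg all samples lay below all vehicle samples, but by a gap of only 0.003, and they overlapped after quantile normalisation. Vehicle was 1.16-fold higher than 10 mg/kg (1.00 to 1.35, limma adjusted p = 0.363) and 1.22-fold higher than 30 mg/kg (1.05 to 1.41, adjusted p = 0.212). A second probe set of Sardh had vehicle 1.15-fold and 1.17-fold higher, also without overlap at 30 mg/kg.

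Shmt1, which moves the carbon of serine to folate in the cytosol, had values of 11.15, 10.68, 10.62, 10.54 and 10.83 in vehicle, 11.19, 11.06, 10.86, 10.86 and 11.04 at 10 mg/kg, and 10.88, 10.95, 11.02, 10.88 and 10.62 at 30 mg/kg. Vehicle sample 1 lay among the highest of all samples, and the other vehicle samples lay below every 10 mg/kg sample. The mean was 1.18-fold that of vehicle at 10 mg/kg (1.01 to 1.38, limma adjusted p = 0.361) and 1.08-fold at 30 mg/kg (adjusted p = 0.652). Gldc and Amt, parts of the glycine cleavage system, had means of 9.90 ± 0.36, 9.94 ± 0.14 and 9.86 ± 0.17, and of 9.57 ± 0.14, 9.43 ± 0.09 and 9.42 ± 0.12. Dmgdh, which makes sarcosine from dimethylglycine, had means of 11.58 ± 0.25, 11.69 ± 0.13 and 11.57 ± 0.27. The methionine cycle genes Mat1a, which makes S-adenosylmethionine in liver, and Ahcy, which removes S-adenosylhomocysteine, had ratios to vehicle between 0.949 and 1.05 at both doses.

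Within groups, the spread between samples differed among the 41 genes and was larger in the median than over all genes. The median of the pooled SD was 0.162 log2 units, beside 0.119 for all genes tested. By the brightest probe set, Cps1 had the lowest, 0.06, and Agxt2 (0.58), Gpt (0.57) and Oat (0.41) the highest. The second probe set of Cps1 had SDs of 0.19 in vehicle, 0.06 at 10 mg/kg and 0.07 at 30 mg/kg. Vehicle samples were the more variable: their SD was larger than that at 10 mg/kg in 29 of 41 genes (70.7%, beside 57.9% of all genes) and larger than that at 30 mg/kg in 34 of 41 (82.9%, beside 60.2%). Single samples stood high or low over many of the genes. Vehicle sample 5 was the highest of its group in 24 of 41 genes (58.5%, beside 16.0% of all genes) and vehicle sample 1 the lowest in 18 (43.9%, beside 24.5%). Sample 1 at 10 mg/kg was the highest of its group in 19 (46.3%, beside 25.3%), and sample 2 at 30 mg/kg in 15 (36.6%, beside 29.7%). These counts are descriptions of samples, and the genes in a sample are not independent of each other.

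**Figure D4:**
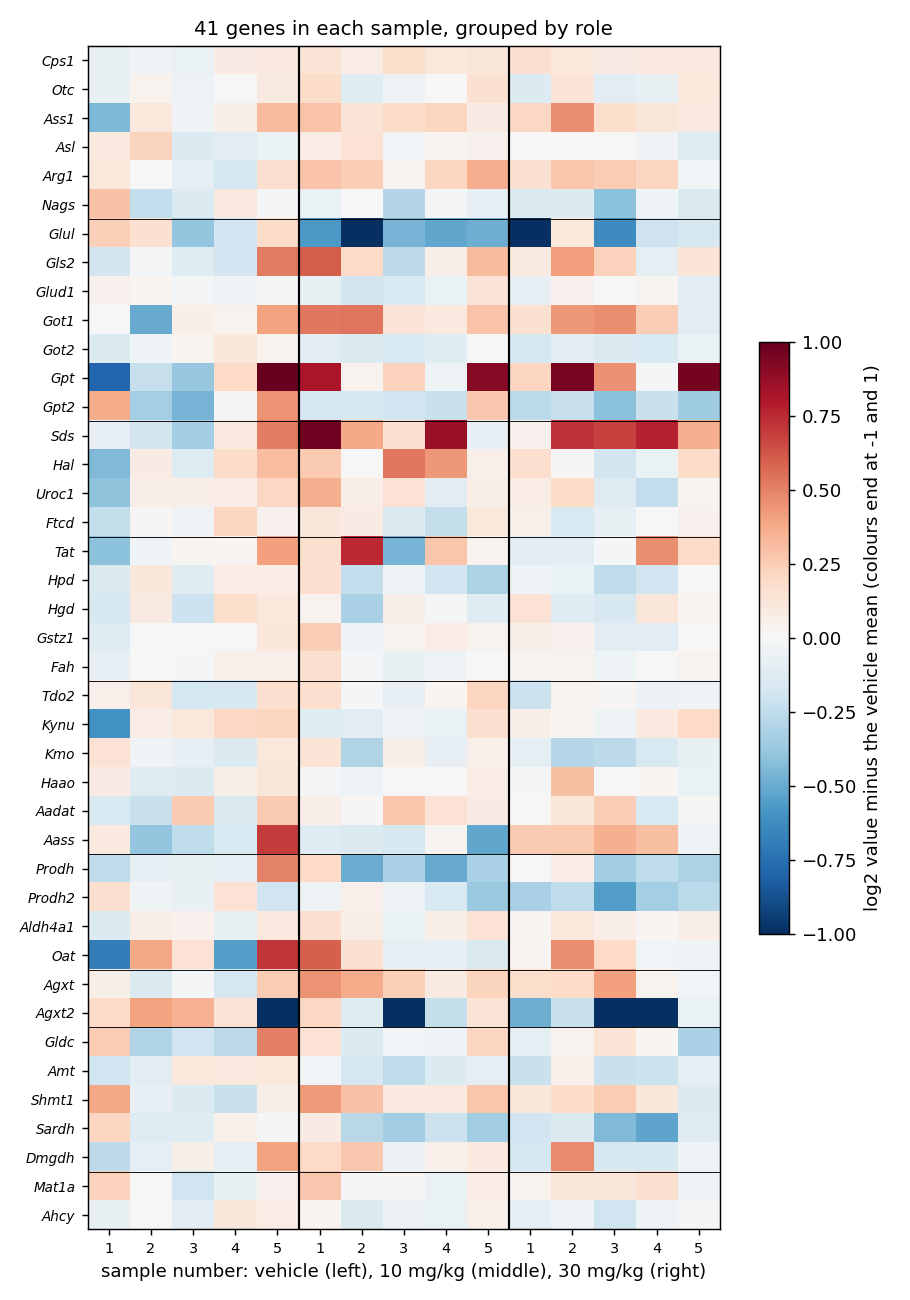
Log2 value minus the vehicle mean of the gene, in colour, for the 41 genes (down, by role) in the 15 samples (across, by group); colours end at -1 and 1. Vehicle sample 5 is the highest of its group in 24 genes and sample 1 at 10 mg/kg in 19.

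Genes of the 2 lobule zones were set beside each other, because the set holds members of both. Of 13 periportal hepatocyte genes measured from a list of 15, 11 had higher means at each dose, with median differences of 0.18 at 10 mg/kg and 0.12 at 30 mg/kg. Of 10 pericentral genes measured from a list of 16, 8 had lower means at each dose, with medians of -0.26 and -0.19. Of all 9540 genes tested, 3986 had higher and 5554 lower means at 10 mg/kg, with a median of -0.02. At 30 mg/kg 3623 of all genes had higher and 5917 lower means, with a median of -0.03. No gene of either list was called by limma. At an unadjusted p under 0.05, 4 of 13 periportal genes were higher at each dose, beside 4.49% and 5.27% of all genes tested. In the pericentral list 4 of 10 were lower at 10 mg/kg and 2 of 10 at 30 mg/kg, beside 8.79% and 10.8%. Of the 4 periportal genes, 3 belong to the urea cycle and amino acid set itself (Cps1, Arg1 and Sds). Over the 5 periportal genes outside the set, 3 had higher means and 2 lower at 10 mg/kg and 4 had higher means at 30 mg/kg, with 1 of 5 at an unadjusted p under 0.05 and medians of 0.14 and 0.12. Over the 8 pericentral genes outside it the medians were -0.26 and -0.19, with 7 lower means at each dose. The 2 pericentral genes in the set ran opposite ways. Glul had lower means, and Oat had higher means, with log2 differences of 0.09 and 0.12. Cyp2e1, a pericentral cytochrome P450, had log2 differences of -0.28 and -0.24, with vehicle 1.21-fold and 1.18-fold higher (limma adjusted p = 0.266 and 0.253). Hsd17b13, a lipid droplet protein of periportal hepatocytes, had means 1.45-fold and 1.21-fold those of vehicle (limma adjusted p = 0.105 and 0.292), without overlap at 10 mg/kg, and is the 1 periportal gene outside the set at that level. Pck1, which starts gluconeogenesis from oxaloacetate, had lower means at both doses (log2 differences of -0.12 and -0.14), and Aldh1b1, an aldehyde dehydrogenase, had -0.11 and 0.12.

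The zonal medians kept their signs when each sample was left out in turn. The periportal medians then ran from 0.10 to 0.26 at 10 mg/kg and from 0.10 to 0.18 at 30 mg/kg. The pericentral medians ran from -0.29 to -0.22 and from -0.26 to -0.15. The number of the 13 periportal genes with higher means ran from 11 to 12 at 10 mg/kg. At 30 mg/kg it ran from 8, without vehicle sample 1, to 12. Of the 10 pericentral genes, 7 to 10 had lower means at 10 mg/kg and 8 to 9 at 30 mg/kg. The counts at an unadjusted p under 0.05 were less steady. At 30 mg/kg the periportal count was 0 without vehicle sample 2 or 3, 1 without 30 mg/kg sample 1, 2 or 3, and 2 without vehicle sample 1 or 4. The pericentral count at 30 mg/kg was 0 without vehicle sample 2 or 30 mg/kg sample 3, 1 without vehicle sample 1 or sample 1 or 2 of either dose, and 5 without 30 mg/kg sample 5. At 10 mg/kg the periportal count was 7 without vehicle sample 5. Other settings also moved the 4 periportal genes at 30 mg/kg, to 1 after centring on the array median or with only the groups compared, and to 2 after quantile normalisation or with the sample number as a block. The pericentral count at 30 mg/kg was 1 with that block, and 1 of 8 with the stricter filter. The macrophage and endothelial markers given above were lower in mean at the same doses, and their part in the zonal values was not tested.

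**Figure D5:**
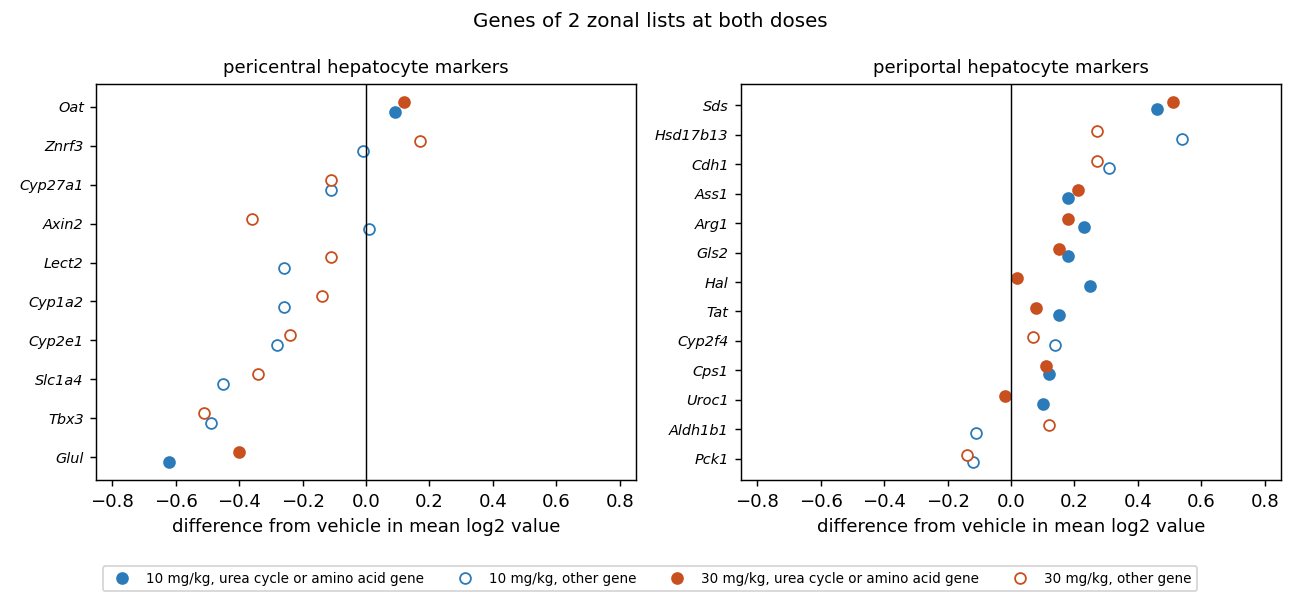
Difference from vehicle in mean log2 value for pericentral and periportal hepatocyte genes at 10 mg/kg and 30 mg/kg; filled points are urea cycle or amino acid genes of the set, open points other genes. At each dose 8 of 10 pericentral genes lie below 0 and 11 of 13 periportal genes above it, and none passed the test.

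Lists of neighbouring steps also held no called gene in either dose comparison or for both doses together. The 20 genes of branched-chain amino acid breakdown measured, of 23, had 15 lower means at 30 mg/kg and a median difference of -0.08, beside -0.03 for all genes. At that dose 5917 of all 9540 genes tested had lower means. At an unadjusted p under 0.05 for both doses, 2 of the 20 were higher and 3 lower (limma), beside 5.30% and 12.4% of all genes. Bckdk, the kinase that switches off branched-chain keto acid oxidation, had means 1.25-fold and 1.22-fold those of vehicle (limma adjusted p = 0.205 and 0.207), without overlap at 10 mg/kg. Dbt, a subunit of the complex that this kinase acts on, had lower means (vehicle 1.13-fold and 1.09-fold higher). Dld, another subunit of that complex that other dehydrogenases share, had higher means, 1.10-fold and 1.12-fold those of vehicle. Ivd, which acts in leucine breakdown, had lower means (vehicle 1.35-fold and 1.24-fold higher). For both doses together the limma adjusted p of Dbt, Dld and Ivd was 0.175 each.

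Among 21 of 26 other steps of amino acid breakdown, 1 was higher and 3 lower at an unadjusted p under 0.05 for both doses, or near the 5.30% and 12.4% of all genes that also stand beside the counts that follow. Gcdh, of lysine and tryptophan breakdown, had log2 differences from vehicle of -0.21 and -0.27 (limma adjusted p = 0.315 and 0.187). Gatm, which starts creatine synthesis, had vehicle 1.36-fold and 1.21-fold higher (limma adjusted p = 0.235 and 0.377). Grhpr, which reduces glyoxylate, had vehicle 1.07-fold and 1.10-fold higher, and Qprt, which uses quinolinate to make NAD, had means 1.15-fold those of vehicle at each dose. In the methionine and cysteine list, all 12 genes were measured and 1 was lower at that level for both doses, Mat2a, the S-adenosylmethionine synthetase form found mainly outside liver. Its vehicle mean was 1.23-fold and 1.43-fold higher (limma adjusted p = 0.36 and 0.151). Of 19 of 27 transporters, 3 were higher and 2 lower for both doses at that level. Slc43a2, a transporter of large neutral amino acids, had vehicle 1.30-fold and 1.22-fold higher, and Slc25a44, a mitochondrial carrier of branched-chain amino acids, had means 1.24-fold and 1.11-fold those of vehicle. Slc1a4, a neutral amino acid transporter that is also on the pericentral list, had vehicle 1.37-fold and 1.26-fold higher, and Slc6a9, a glycine transporter, had means 1.18-fold and 1.13-fold those of vehicle. Only 2 of 9 genes of amino acid synthesis passed the filter, and neither had an unadjusted p under 0.05 at either dose or for both. Of 14 of 15 regulators, 1 was higher for both doses at that level, Ppargc1a, a coactivator raised in fasting. Its means were 1.40-fold and 1.27-fold those of vehicle (limma adjusted p = 0.301 and 0.37).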

How the data were processed

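Values are the authors' deposited log2 values, 1 per probe set and array, on a common scale across arrays. The submitters' processing notes name RMA, GCRMA 2.12.1 and limma 2.14.7 without their roles; whether RMA or GCRMA made the table is not stated there. Normalisation of this kind hides a change shared by most genes, and the number of arrays limits the precision. Groups and sample numbers came from the sample titles.

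Of 31099 probe sets, 20826 carried 1 gene symbol in the platform annotation, 436 several and 9780 none. Of those with 1 symbol, 20758 had a current gene entry (RefSeq, build GRCr8), which updated older names. A probe set needed at least 5 of its 15 values above 6.1, the median over the whole table, and 15939 met this. The brightest kept probe set with 1 symbol stood for each of 9540 genes. Of the 41 genes, 9 have several probe sets, with 11 beside the brightest, of which 7 passed the filter. Those of Cps1, Asl, Glul, Gpt2 and Sardh are given with the gene. That of Glud1 had log2 differences from vehicle of -0.08 at 10 mg/kg and -0.05 at 30 mg/kg.

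Group means were fitted to all 15 arrays with limma 3.58.1 in R 4.3.3 (eBayes without trend or robust options, two-sided), with Benjamini-Hochberg adjustment over the 9540 genes. Fold values are powers of 2 of differences in mean log2 value, with 95% confidence intervals. Glul at 10 mg/kg was also tested with an exact permutation test. Summed marker levels are log2 of the sum of linear values. On simulated data for the 10 mg/kg comparison with 9540 genes and 20 simulations, 89.6% of genes given a 1.5-fold change were recovered, 97.3% at 2-fold and 99.5% at 4-fold, with a mean false share of 4.37%. The changed genes were drawn at random from all genes tested, in a number set beforehand, with independent normal noise of each gene's own spread. These rates hold for that setting only. They are not rates for the 41 genes, whose median pooled SD was larger (0.162 against 0.119 log2 units for all genes).

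Values for every sample are given for genes with an unadjusted p under 0.05 at either dose, with groups that do not overlap or with 1 of the 4 largest differences in each direction at either dose, and for Cps1 and Glul; other lists name up to 4 genes with the smallest p for both doses. The 41 genes and the lists were chosen with earlier results of these data known. Promoter sequences are from RefSeq, build GRCr8. Alternatives changed the filter (none, or stricter), the features (mean over the probe sets of a gene, or every probe set), the scaling (quantile, or array median), and the fit (array weights, trend and robust options, only the groups compared, a block on sample number), or left out each sample in turn.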

Additional observations from a re-analysis of the deposited data

Results flagged for a closer look

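In 13 of 123 groups of 5 samples (41 genes in 3 groups), 1 sample stood apart from the other 4, its gap to the nearest being over 0.71 of the group's range (Dixon's 95% limit). Chance gives about 1 in 20 such groups, and groups of 1 sample are not independent across genes. In vehicle, sample 5 was high for Gls2 (11.82 against 11.11 to 11.28) and Prodh (10.29 against 9.54 to 9.72) and low for Agxt2 (10.34 against 11.56 to 11.82). Vehicle sample 1 was low for Uroc1 (11.81 against 12.28 to 12.42) and Kynu (11.53 against 12.21 to 12.35).

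At 10 mg/kg, sample 1 was high for Prodh (9.99 against 9.29 to 9.47) and Sardh (10.75 against 10.32 to 10.45), sample 2 low for Glul (10.67 against 11.12 to 11.23), and sample 5 high for Gpt2 (10.37 against 9.88 to 9.93). At 30 mg/kg, sample 2 was high for Haao (11.83 against 11.46 to 11.55) and Dmgdh (12.05 against 11.41 to 11.53), sample 3 low for Nags (9.77 against 10.04 to 10.14), and sample 5 low for Aass (11.55 against 11.86 to 11.96).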

How the results depend on the processing

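No gene of the 41 was called in any comparison under any alternative or with any 1 sample left out. With 1 sample left out, their smallest adjusted p (limma) was 0.13 at 10 mg/kg, 0.0758 at 30 mg/kg and 0.0906 for both doses. Under the other settings, all probe sets of the genes included, it was 0.105, 0.0799 and 0.0715. Over all genes, the 10 calls at 10 mg/kg became 3 without a filter and 16 with all probe sets as features, the 0 at 30 mg/kg became 10 with all probe sets and 1 with array weights, and the 14 for both doses became 25 with all probe sets and 7 with array weights. With 1 sample left out these counts ran from 0 to 26, from 0 to 5, and from 0 (without 10 mg/kg sample 3) to 85 (without vehicle sample 5), and stayed at 0 between the doses. The causes were not tested. The zonal lists were run under all settings except every probe set as a feature, as a choice made after seeing the data. Their medians kept their signs in each setting run.

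The medians of the 41 genes with 1 sample left out ran from 0.002 to 0.057 at 10 mg/kg, from -0.039 to 0.032 at 30 mg/kg, from -0.062 to -0.015 between the doses and from -0.012 to 0.053 for both doses. Genes without overlap numbered 1 to 3 at 10 mg/kg and 2 to 3 at 30 mg/kg, fewer samples overlapping less by construction, and 1 at 30 mg/kg after quantile normalisation.

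Log2 differences near 0 changed sign: Hal at 30 mg/kg was -0.0011 with array weights, Oat at 10 mg/kg -0.02 with array weights, Gldc at 30 mg/kg 0.0001 after quantile normalisation and Hgd at 30 mg/kg -0.01 after centring on the array median. Fah at 10 mg/kg was -0.01 after quantile normalisation, -0.0009 after centring and -0.01 with array weights, and at 30 mg/kg -0.0036 after centring. With 1 sample left out, 25 of 82 differences (41 genes at 2 doses) took both signs. At 10 mg/kg these were Otc (-0.0036 to 0.07), Gpt2 (-0.22 to 0.01), Ftcd (-0.08 to 0.04), Fah (-0.04 to 0.02), Kynu (-0.18 to 0.02), Kmo (-0.07 to 0.04), Haao (-0.03 to 0.03), Oat (-0.09 to 0.26), Agxt2 (-0.5 to 0.0002), Gldc (-0.04 to 0.16). At 30 mg/kg they were Otc (-0.06 to 0.01), Asl (-0.07 to 0.02), Hal (-0.09 to 0.1), Uroc1 (-0.12 to 0.04), Ftcd (-0.09 to 0.02), Tat (-0.02 to 0.18), Hgd (-0.05 to 0.05), Gstz1 (-0.05 to 0.01), Fah (-0.01 to 0.03), Kynu (-0.09 to 0.12), Haao (-0.02 to 0.08), Aadat (-0.02 to 0.11), Oat (-0.05 to 0.3), Gldc (-0.12 to 0.08), Dmgdh (-0.14 to 0.09).

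The sample numbers gave no clear pairing. Deviations of same-numbered samples correlated at -0.0706 to 0.195 (median 0.0489), 2 of 15 pairs over 0.1. Those of different-numbered samples correlated at -0.207 to 0.216 (median -0.0115), 9 of 60 pairs over 0.1. Only 3 of 15 samples correlated best with their own number. Whether same-numbered samples share anything cannot be told from these values. With the number as a block, the genes called were 0 at 10 mg/kg (1212 at an unadjusted p under 0.05, limma) and 3 for both doses.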
